A study of Mus musculus with 69 samples.

Results

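The RNA levels of 10 genes of the Notch pathway were examined in cultured primary cells of male C57BL/6 mice: the receptors Notch1, Notch2, Notch3 and Notch4, the ligands Jag1 and Jag2, and the target genes Hey1, Hey2, Heyl and Hes1. They were chosen by symbol, and each matched 1 of the 56953 gene identifiers of the raw count tables. Bulk poly(A) RNA-Seq gave 69 libraries. Wild-type vascular smooth muscle cells (WT VSMC) came from thoracic and abdominal aorta, with 4 sets of 4 conditions (sets 1 to 4). KO VSMC (sets 5 to 8) came from mice with floxed Egfr alleles and a Cre driven by the smooth muscle promoter SM22, so that the deletion of the EGF receptor was made in the animal and carried into culture. Endothelial cells (EC) were taken from heart with magnetic beads as CD45-/CD31+ cells and labelled WT (sets 9 to 18).

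Each set holds cells of 1 animal at 1 passage that were exposed in parallel for 24 h to Control medium, HG + FFA (20 mM glucose and 100 µM free fatty acids per the labels), AII + NA (30 nM angiotensin II and 300 nM of a catecholamine, called epinephrine in the labels and norepinephrine in the methods) or both mixtures together (ALL). For the fatty acids the methods name 100 µM oleate plus 100 µM palmitate. VSMC were cultured for up to 7 passages and kept without serum for 24 h beforehand, and serum albumin was in all solutions, Control included. No age was given in the sources used here. ALL of set 5, Control of set 10 and AII + NA of set 15 were not analysed here, which left n = 4 per VSMC condition except ALL in KO VSMC (n = 3), and for EC n = 9 for Control and AII + NA and n = 10 for HG + FFA and ALL. EC sets 17 and 18 were from the same mouse, so the 10 EC sets stand for 9 animals. EC sets 9 and 10 shared their animals with WT VSMC sets 1 and 2, and EC sets 15 and 16 carried the animal numbers of KO VSMC sets 7 and 6.

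Notch receptors are single-pass membrane proteins that are activated by ligands of the Jagged and Delta-like families on a neighbouring cell. Ligand binding lets Adam10 and the gamma-secretase complex cut the receptor, and the released intracellular domain enters the nucleus, where it joins the DNA-binding protein Rbpj and a Mastermind-like coactivator. Among the genes switched on are the repressors of the Hes and Hey families. In the vessel wall Notch3 is known as the receptor of smooth muscle and pericytes, Notch1 and Notch4 as receptors of the endothelium, and Jag1 as a ligand by which endothelium and smooth muscle keep smooth muscle contractile. All of this concerns the protein; receptor cleavage leaves no direct trace in the counts.

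Because Rbpj reads DNA by a short motif, the promoters of the genes were searched for it. RefSeq promoter windows existed for 7 of the 10 genes; Hey1, Heyl and Hes1 had none. The letters TGGGAA, the core of the motif, were found on either strand in 1 of the 7, Hey2, and both places there also held the longer form GTGGGAA, so that the matches overlap. Of all 32851 promoter windows, 25.6% held TGGGAA and 6.38% held GTGGGAA. The 2 places in Hey2 are shown because this is the target gene with the motif; the capitals mark GTGGGAA or its reverse complement TTCCCAC, and the bases run 5′ to 3′ on the strand of the gene (minus strand, GRCm39). The first lies upstream at chr10:30718970-30718999 and the second reaches into the first transcribed bases of the RefSeq transcript at chr10:30718777-30718806.
Hey2, upstream: gtgcgcggtggcaTTCCCACgcctctgcca
Hey2, start: ttgcgccctggctgggctgcagcGTGGGAA
The stretch before the start of Notch3 (chr17:32385895-32386114, GRCm39, minus strand) is shown because Notch3 was the gene that passed the test under stressors in WT VSMC; it holds no match to TGGGAA, hence no capitals.
Notch3: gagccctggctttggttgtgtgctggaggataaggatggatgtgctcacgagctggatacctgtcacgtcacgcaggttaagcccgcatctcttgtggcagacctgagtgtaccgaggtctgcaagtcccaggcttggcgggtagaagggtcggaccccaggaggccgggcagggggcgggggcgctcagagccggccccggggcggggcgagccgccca
A match is a description of letters and no evidence of binding.

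Library totals ran from 23626664 to 37801299 counts in WT VSMC, from 23238979 to 35120866 in KO VSMC and from 17166133 to 43240489 in EC. Egfr, the deleted gene, had 283 to 504 FPM (counts scaled to library size, with TMM factors over all 69 libraries) in WT VSMC Control, 40.2 FPM in KO VSMC set 5 Control and at most 1.69 FPM in sets 6 to 8 Control, so set 5 kept more Egfr RNA than the other KO sets. Smooth muscle marker RNA was uneven: Acta2 had 223 to 2566 FPM over all VSMC libraries, but Myh11, a defining contractile marker, had a median of 6.44 FPM in WT VSMC and 4.74 FPM in KO VSMC. The 5 fibroblast markers summed to 3954 to 11440 FPM in WT VSMC and to 1225 to 6285 FPM in KO VSMC. The 8 endothelial markers summed to 1.96 to 68.8 FPM in VSMC and to 46.8 to 4880 FPM in EC, where sets 9, 11 and 13 stood apart with low endothelial marker RNA, and sets 11 and 13 also had the highest smooth muscle and fibroblast marker RNA in Control. In bulk RNA, fewer cells of a type and less RNA per cell cannot be told apart, and cell type, organ and labelled batch coincided between VSMC and EC.

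Levels of the 10 genes were first compared in Control, per kb of exon. In WT VSMC the most abundant was Jag1 with 12.7 ± 3.33 FPM per kb (SD, n = 4), followed by Notch2 (10.4 ± 3.43), Notch3 (10.2 ± 3.89) and Hes1 (8.02 ± 5.11). Then came Hey2 (1.71 ± 1.42) and Notch1 (1.18 ± 0.502), and Notch4, Heyl, Hey1 and Jag2 were at 0.263 FPM per kb or below. The ranges of every pair of neighbours in this order overlapped, so single steps of it did not exceed the spread between sets, while the lowest of the top 3 genes (Notch3 in set 4, 4.75 FPM per kb) was above the highest Hey2 value (3.61). KO VSMC had the same 4 genes on top, in the order Jag1 (16.4 ± 9.25), Hes1 (11.04 ± 7.80), Notch2 (7.65 ± 3.31) and Notch3 (6.17 ± 2.13), and there the step from Notch3 down to Hey2 (1.83 ± 1.62) was free of overlap. In EC, Jag1 led with 57.0 ± 22.7 FPM per kb (n = 9), followed by Notch3 (15.6 ± 7.14), Hes1 (14.8 ± 7.51), Notch2 (9.89 ± 4.06) and Notch1 (8.42 ± 6.53), again with overlap at each step. These EC means pool sets of unlike marker RNA. In each of sets 12, 14, 15 and 18, rich in endothelial marker RNA, Notch1 lay above Notch3 per kb, the reverse of the order of the means.

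**Figure D1:**
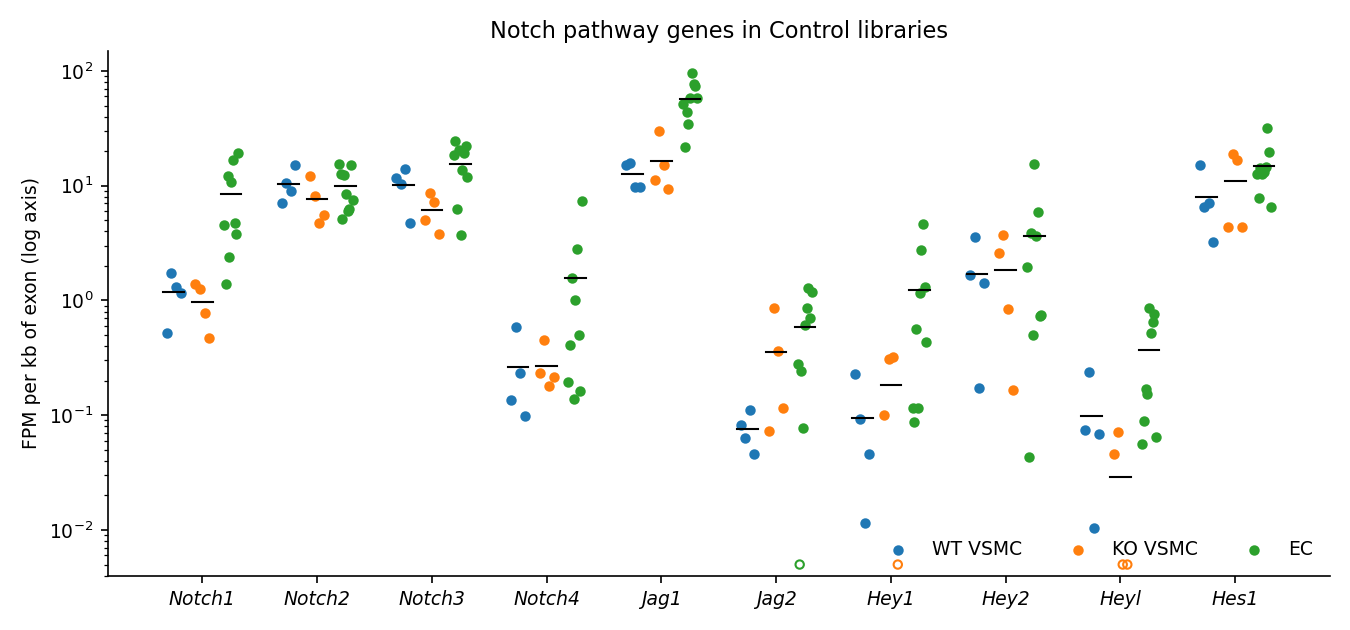
RNA level per kb of exon (log axis) of the 10 Notch pathway genes in each Control library of WT VSMC (n = 4), KO VSMC (n = 4) and EC (n = 9); points are libraries, bars are means and open points at the bottom are libraries with 0 counts. Jag1 was the highest gene by mean in all 3 cell types, and its EC libraries, the lowest at 21.7 FPM per kb, all lie above the WT VSMC libraries, the highest at 15.9 FPM per kb.

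Whether the combined stressors changed these genes in WT VSMC was tested within sets with edgeR (quasi-likelihood test, Benjamini-Hochberg adjusted FDR over all genes tested, two-sided), a gene passing at an FDR below 0.05. Notch3 was the gene that passed: it rose under ALL by a log2FC of 0.64 (SE 0.13, FDR = 0.00752), a 1.56-fold increase, and was higher in 4 of 4 sets. Of 10 genes tested 1 passed, where 7.45% of all 16905 genes tested did (1259 genes), a share of the same order. The median log2FC of the 10 genes was -0.14, with 4 above and 6 below 0, against -0.01 for all genes.

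The Notch3 gene lies at chr17:32339794-32385893 (GRCm39, minus strand), and exons of the lncRNA Gm17276 on the other strand cover 8.9% of its exonic bases. In Control the 4 sets held 105, 93.4, 125 and 42.8 FPM of Notch3 (sets 1 to 4). Under ALL they held 179, 148, 165 and 70.0 FPM. The rise was thus 1.70-fold, 1.59-fold, 1.32-fold and 1.64-fold in the 4 sets. Set 4 was low under every condition, and for that reason the 2 groups overlapped although each set moved up. HG + FFA alone left Notch3 at 112, 165, 141 and 49.1 FPM (log2FC 0.33, SE 0.13, FDR = 0.324), above Control in 4 of 4 sets, with the largest step in set 2. AII + NA alone gave 94.5, 114, 117 and 59.8 FPM, higher in 2 and lower in 2 sets (log2FC 0.13, SE 0.13, FDR = 0.81). The difference between the ALL effect and the sum of both single effects was not distinguishable from 0 for any of the 10 genes (departure from additivity, 0 of 10 passing, 0% of all genes passing in edgeR and DESeq2 and 290 of 16905 at an unadjusted p under 0.05 in edgeR).

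By the rule for a differentially expressed gene (DEG) used in the study (FDR below 0.05 in edgeR and DESeq2, a log2FC of at least 0.64 in size, and at least 3 FPM), 2.14% of the genes tested were DEG under ALL in WT VSMC and none of the 10 was, since the edgeR log2FC of Notch3, 0.639, lay just under that limit and the DESeq2 value, 0.644, just above it. When the sets were not used as a block, Notch3 kept its direction (log2FC 0.62) but with an SE of 0.39 and an FDR of 0.99989; the whole comparison then had 0 genes passing in edgeR, with 864 at an unadjusted p under 0.05. Marker RNA moved in the same libraries: the 7 smooth muscle markers summed to 311 to 1156 FPM in Control and 1080 to 1524 FPM under ALL, 2 of 7 rose (Mylk and Tagln, the latter with most of its exonic bases shared with other genes) and none fell, and the 8 endothelial markers summed to 3.40 to 68.8 FPM and 1.96 to 32.0 FPM, with Cdh5 and Emcn lower. Of the 3 pericyte markers tested, genes of another Notch3-expressing mural cell, Rgs5 (log2FC -0.55) and Kcnj8 (log2FC -1.44) fell, and their list summed to 1.26 to 46.1 FPM in Control and 1.24 to 27.0 FPM under ALL. Pdpn, listed as a lymphatic endothelial marker, was lower and Tnnt2, listed as a cardiomyocyte marker, higher. Their medians over all WT VSMC libraries were 140 and 21.8 FPM, while no other gene of these lists exceeded 0.720 FPM in any of them. Pdpn and Tnnt2 were therefore not read as signs of those cell types. Under AII + NA alone the smooth muscle markers summed to 807 to 2073 FPM, with Mylk higher, while Notch3 was higher in 2 sets and lower in 2. The part of the markers in the rise of Notch3 under ALL was not tested.

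**Figure D2:**
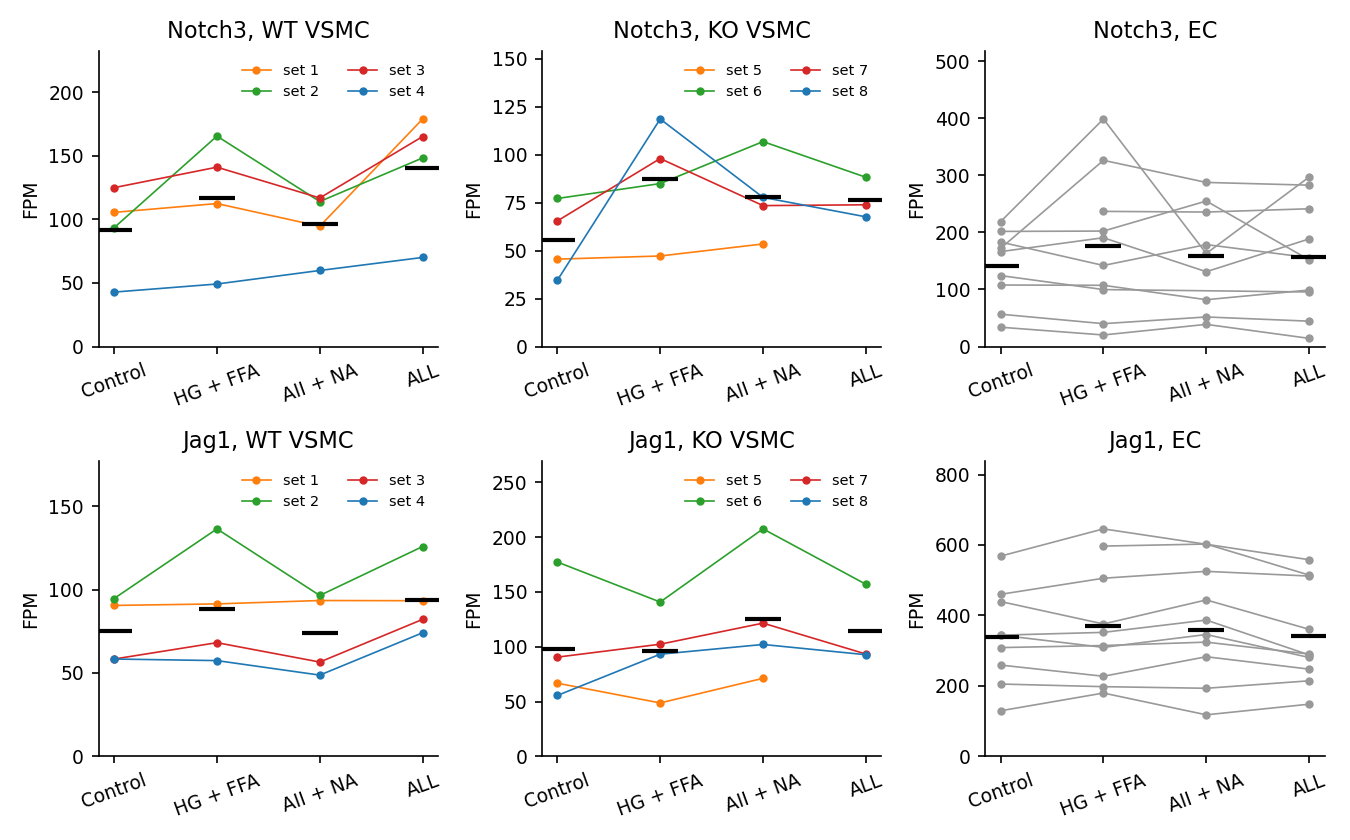
FPM (linear axes from 0, a scale of its own in each panel) of Notch3 (top) and Jag1 (bottom) under the 4 conditions in WT VSMC, KO VSMC and EC; each line is a set and black bars are group means. The ALL point of Notch3 lies above the Control point in all 4 WT VSMC sets, from 42.8 to 70.0 FPM in the lowest, while EC sets run in both directions.

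The other receptors did not pass in WT VSMC. Notch2, at 80.0, 119, 101 and 170 FPM in Control, had 93.7, 102, 99.6 and 114 FPM under ALL (log2FC -0.14, SE 0.13, FDR = 0.588). Notch1 lay between 7.43 and 24.7 FPM in Control and had a log2FC of -0.19 (SE 0.20, FDR = 0.644). Notch4, at 0.875 to 5.18 FPM, had -0.14 (SE 0.18, FDR = 0.727). Set 2 had the most Notch1 and Notch4 RNA of the 4 Control sets and also the most endothelial marker RNA.

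Jag1, the abundant ligand (chr2:136923373-136958693, GRCm39, minus strand), lay close to the threshold under ALL. Its Control values were 90.5, 94.6, 58.3 and 58.4 FPM, and its ALL values 93.3, 126, 82.1 and 74.1 FPM. All 4 sets were higher, by 1.03-fold in set 1 and by 1.27-fold to 1.41-fold in the others, and the groups overlapped (log2FC 0.33, SE 0.10, FDR = 0.0516). DESeq2 gave the same log2FC with an FDR of 0.0235, edgeR with DESeq2 size factors 0.0493, edgeR without the filter on low counts 0.0119 and edgeR without set 1 0.0267, whereas without set 2, 3 or 4 the FDR was 0.126 to 0.261. Jag2 RNA was scarce at 0.328 to 0.795 FPM in Control, 2 to 29 counts over all WT VSMC libraries, and its log2FC of -0.39 (SE 0.39) had an FDR of 0.622.

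Of the target genes, Hes1 was the abundant one, at 51.5, 22, 23.7 and 11.01 FPM in Control and 86.5, 27.2, 24.6 and 11.1 FPM under ALL. It was higher in 4 of 4 sets, by 1.68-fold in set 1 and by little in sets 3 and 4 (log2FC 0.29, SE 0.18, FDR = 0.368). Hey2 was 8.10, 17.7, 0.850 and 6.93 FPM in Control and 4.91, 15.8, 1.05 and 6.59 FPM under ALL (log2FC -0.22, SE 0.21, FDR = 0.582), and the spread between sets exceeded any difference between conditions. Hey1 and Heyl were near the limit of counting, with at most 41 and 39 counts in a WT VSMC library. Under HG + FFA 0 of the 10 genes passed (0.538% of all genes did), and under AII + NA 0 of 10 (0.0532% of all genes); at an unadjusted p under 0.05 there were 1 and 0 genes, and in DESeq2 0 in both.

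**Figure D3:**
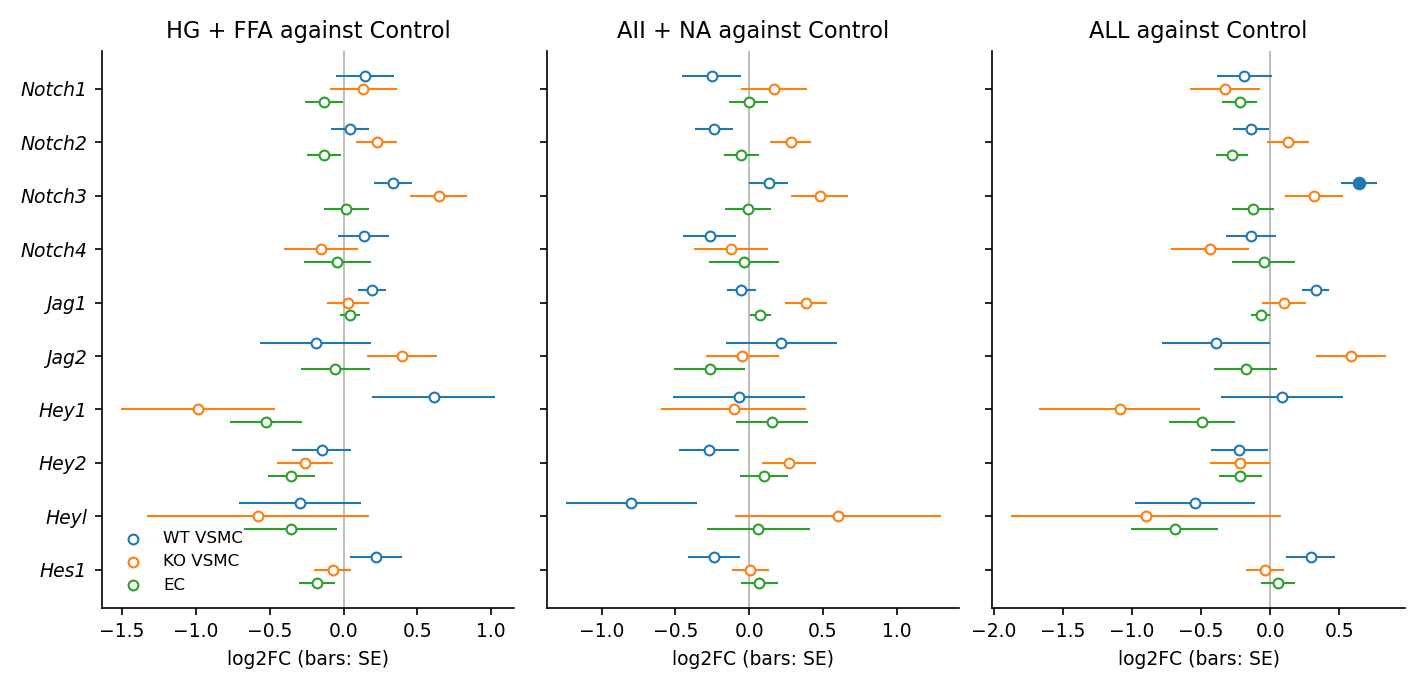
log2FC of the 10 genes for each stressor condition against Control in WT VSMC, KO VSMC and EC; bars are standard errors, each panel has a log2FC axis of its own, and filled points passed at an FDR below 0.05. Notch3 under ALL in WT VSMC, at 0.64, is the filled point.

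The same comparisons were made in KO VSMC. Under HG + FFA 0 of 10 genes passed (0.439% of all genes did), under AII + NA 0 of 10 (0% of all genes, with 1711 at an unadjusted p under 0.05 and 11 by DESeq2) and under ALL 0 of 10 (0.399%); at an unadjusted p under 0.05 there were 1, 2 and 1 of the 10 genes, and DESeq2 passed 0 in each. Notch3 was again among those nearest to the threshold. Its Control values were 45.5, 77.1, 65.4 and 34.5 FPM in sets 5 to 8, and under HG + FFA they were 47.2, 84.9, 97.9 and 119 FPM, higher in 4 of 4 sets. The log2FC was 0.64 (SE 0.19, FDR = 0.22), and set 8, with a 3.44-fold step, carried most of it: without set 8 the log2FC was 0.28 (FDR = 0.712), and without set 5 it was 0.83 (FDR = 0.0277). Without set 5, however, 1442 of all genes passed, against 77 with all sets, so that pass was not particular to Notch3.

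AII + NA gave 53.4, 107, 73.4 and 77.7 FPM of Notch3 in KO VSMC, also higher in 4 of 4 sets (log2FC 0.48, SE 0.19, FDR = 0.509). ALL gave 88.2, 73.8 and 67.5 FPM in sets 6 to 8, higher in 3 of 3 sets (log2FC 0.32, SE 0.21, FDR = 0.617). Under ALL the gene was thus not above the single mixtures, and its departure from additivity was -0.81 (SE 0.28, unadjusted p = 0.012, FDR = 0.658), with 0 of 10 genes and 0% of all genes passing in edgeR, none in DESeq2, and 1155 of 17538 genes at an unadjusted p under 0.05. Jag1 under AII + NA had 71.2, 208, 122 and 102 FPM against 66.8, 177, 90.5 and 55.6 FPM in Control, higher in 4 of 4 sets (log2FC 0.38, SE 0.14, FDR = 0.509). Set 6 was the highest for Jag1 in each condition. In set 8 every stressor condition lay above its Control library for Notch3 (3.44-fold, 2.25-fold and 1.96-fold under HG + FFA, AII + NA and ALL). The same held for Jag1 (1.68-fold, 1.84-fold and 1.67-fold), Notch1, Notch2, Jag2, Hey2 and Hes1, while Notch4 lay below it in each. That 1 Control library thus enters the rises of Notch3 and Jag1 and the departure of Notch3 from additivity.

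Jag2 in KO VSMC was 0.520, 6.08, 2.59 and 0.820 FPM in Control and 6.21, 4.64 and 1.65 FPM under ALL in sets 6 to 8 (log2FC 0.58, SE 0.25, FDR = 0.431). Hes1 was high in sets 6 and 7 (63.8 and 56.1 FPM in Control) and low in sets 5 and 8 (14.6 and 14.7 FPM), a split that the stressors left in place. Hey2 was 12.8, 18.3, 4.13 and 0.820 FPM in Control of sets 5 to 8 and did not share this split, since set 5 lay above set 7. Hey1 had 0 counts in the Control library of set 8, and Heyl had 0 counts in sets 7 and 8 under every condition.

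The effect of each stressor condition was then compared between WT VSMC and KO VSMC in a joint fit. The difference for Notch3 under ALL (WT minus KO) was 0.33 (SE 0.26, FDR = 0.799), so the effects on Notch3 could not be told apart between the genotypes although the gene passed in WT VSMC and not in KO VSMC. For ALL 0 of 10 genes passed (0.0109% of all genes, 2 of 18339), for HG + FFA 0 of 10 (0%) and for AII + NA 0 of 10 (0%), with 564 and 2182 of all genes at an unadjusted p under 0.05 in the last 2 cases and 0 genes by DESeq2. The differences nearest to passing were Notch2 (-0.51, SE 0.20, unadjusted p = 0.0178, FDR = 0.395) and Jag1 (-0.43, SE 0.18, unadjusted p = 0.0267, FDR = 0.404) under AII + NA, both lower in WT VSMC. Across the KO VSMC sets AII + NA over Control ran from 0.904-fold to 1.51-fold for Notch2 and from 1.07-fold to 1.84-fold for Jag1, highest in set 8 for both. Across the WT VSMC sets it ran from 0.643-fold to 1.04-fold for Notch2 and from 0.835-fold to 1.03-fold for Jag1, lowest in set 4 for both. The 3 libraries of ALL in KO VSMC against 4 in WT VSMC limit the precision of the ALL difference.

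In Control itself, KO VSMC against WT VSMC gave 0 of 10 genes passing, with 0.00622% of all genes passing (1 of 16089, 1958 at an unadjusted p under 0.05, and 343 by DESeq2, none of them among the 10). The 1 gene was higher in KO VSMC, so Egfr itself did not pass in edgeR, with means of 386 FPM in WT VSMC and 10.8 FPM in KO VSMC. A test that missed the deleted gene cannot show that the 10 genes were alike between genotypes. Jag2 had the largest difference, a log2FC of 2.20 (SE 0.73, unadjusted p = 0.0146, FDR = 0.378). Its WT values were 0.581, 0.446, 0.795 and 0.328 FPM, and the KO values of sets 6 and 7 were far above these, while set 5 (0.520 FPM) was within them and set 8 (0.820 FPM) close to the highest of them. Notch3 was lower in KO VSMC by the estimate (55.6 ± 19.2 against 91.6 ± 35.1 FPM, SD, n = 4 each; log2FC -0.72, SE 0.34, FDR = 0.419), with overlapping groups. Each genotype was 4 animals, with no pairing between them. Marker RNA also differed in Control: the fibroblast markers summed to 4866 to 11440 FPM in WT VSMC and 1418 to 6285 FPM in KO VSMC (median log2FC -1.77). The smooth muscle markers summed to 311 to 1156 FPM and 886 to 2982 FPM (median log2FC 1.19), with none of either list passing. The part of these markers in the differences of Jag2 and Notch3 was not tested.

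EC differed from WT VSMC in Control by more of these genes. Jag1 was 4.57-fold higher in EC (log2FC 2.19, SE 0.36, FDR = 0.00331) and Notch1 7.25-fold higher (log2FC 2.86, SE 0.70, FDR = 0.0213), so 2 of 10 genes passed where 12% of all 17115 genes tested did. The 9 EC Control libraries had 129 FPM of Jag1 at the lowest, 344 at the median and 568.4 at the highest, all above the highest WT VSMC value of 94.6 FPM. For Notch1 they had 19.9, 67.2 and 276 FPM, and 8 of 9 were above the highest WT VSMC value of 24.7 FPM; set 11 was within the WT VSMC range. Leaving out any 1 of the 4 WT VSMC sets moved the FDR of Notch1 to 0.054 to 0.0739, above the threshold, while that of Jag1 stayed at 0.0131 to 0.0185.

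Hey1 (2.68 FPM at the median in EC against 0.332 FPM in WT VSMC), Jag2 (4.36 against 0.513 FPM) and Notch4 (4.44 against 1.62 FPM) had large log2FC of 3.72 (SE 1.22), 2.95 (SE 1.02) and 2.61 (SE 1.12) that did not pass in edgeR (FDR = 0.0594, 0.0698 and 0.132). All 3 passed in DESeq2, where 21.1% of all genes passed. They also passed in edgeR without the EC sets 9, 11 and 13, an alternative chosen after the data had been seen, where 28.5% of all genes passed. The animals of the left-out sets had the lowest mean log2 FPM over the conditions for each of these 3 genes (Hey1 at most -0.458, against 1.124 or more in the other EC animals). A larger difference without them was thus built in. Notch2 had 111 ± 45.8 FPM in EC (SD, n = 9) and 118 ± 38.7 FPM in WT VSMC (log2FC -0.06, SE 0.32, FDR = 0.922). Notch3, with 141 ± 64.3 FPM in EC and 91.6 ± 35.1 FPM in WT VSMC, had a log2FC of 0.64 (SE 0.43, FDR = 0.336). These comparisons rest on cell types taken from different organs in different labelled batches, which cannot be told apart. The test also took all libraries as independent, although the 9 EC Control libraries came from 8 animals and set 9 shared its animal with WT VSMC set 1.

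Within EC the receptors differed strongly between sets. In Control the endothelial markers summed to 48.0, 132 and 65.1 FPM in sets 9, 11 and 13, to 750 and 492 FPM in sets 16 and 17, and to 3045 FPM or more in sets 12, 14, 15 and 18. Notch1 was 65.3, 19.9 and 34.3 FPM in the first 3 of these, 67.2 and 54.3 FPM in sets 16 and 17, and 174, 152, 236 and 276 FPM in sets 12, 14, 15 and 18. The 4 sets rich in endothelial marker RNA were thus the 4 highest for Notch1, without overlap. Notch4 was likewise 13.99, 8.90, 24.8 and 65.8 FPM in sets 12, 14, 15 and 18 and at most 4.44 FPM in the other 5.

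Notch3 went the other way, at 56.6, 33.8, 124 and 108 FPM in sets 12, 14, 15 and 18 and 166 to 219 FPM in the other 5. Notch2 was 57.2, 95.9, 67.5 and 84.2 FPM in the 4 marker-rich sets, 69.9 FPM in set 16 and 141 to 173 FPM in sets 9, 11, 13 and 17. Sets 11 and 13 also had the highest summed smooth muscle marker RNA (3092 and 3935 FPM), while sets 15 and 18 had the lowest (193 and 187 FPM). That sum was mostly Acta2: over all EC libraries its median was 514 FPM and that of the sum 592 FPM. Myh11, Cnn1 and Tagln had medians of 2.95, 3.40 and 3.94 FPM. The fibroblast markers summed to 8348 and 11240 FPM in sets 11 and 13, to 3958, 3362 and 4859 FPM in sets 9, 16 and 17, and to 710.5, 845.7, 1595 and 1743 FPM in sets 12, 14, 15 and 18. Sets 17 and 18, from the same mouse, differed 5.08-fold in Notch1 and 46.1-fold in Notch4, so the spread between sets is not only a spread between animals. These values describe 9 libraries grouped after their marker RNA had been seen, and no test was made on them.

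**Figure D4:**
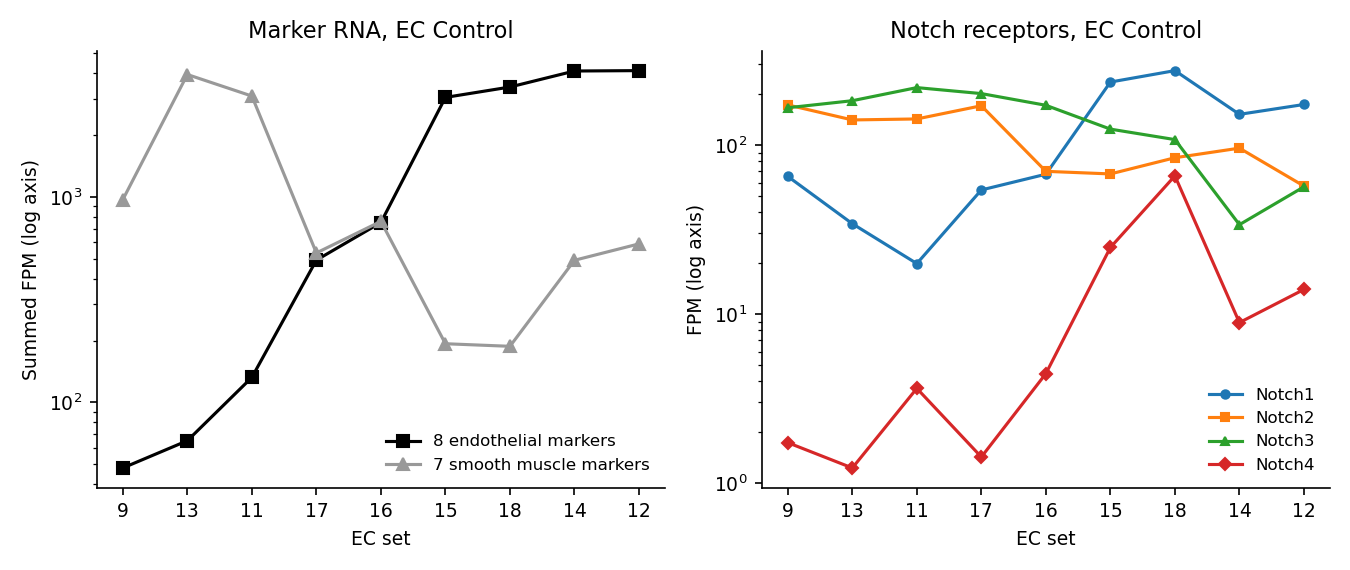
Left, summed FPM (log axis) of the 8 endothelial and the 7 smooth muscle markers in the 9 EC Control libraries, ordered by endothelial marker RNA; right, FPM (log axis) of the 4 Notch receptors in the same order. Notch1 and Notch4 are highest in the 4 sets at the right end (Notch1 152 to 276 FPM), and Notch3 and Notch2 are higher at the left end.

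Target genes in EC differed by set as well. Hey2 ran from 0.211 FPM in set 11 to 75.7 FPM in set 14 with a median of 9.52 FPM, and Hey1 from 0.421 FPM in set 11 to 22.5 FPM in set 16 with a median of 2.68 FPM. Hes1 was steadier, from 22.2 to 108 FPM with a median of 44.1 FPM. Heyl ran from 0.296 to 4.57 FPM with a median of 0.894 FPM.

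The stressors were tested in EC within sets. Under HG + FFA 0 of 10 genes passed (3.53% of all 17148 genes did), under AII + NA 0 of 10 (0%, with 1143 genes at an unadjusted p under 0.05 and 0 by DESeq2) and under ALL 0 of 10 (3.18%); DESeq2 passed 0 of the 10 in each. The departure from additivity passed for 0 of 10 and for 0% of all genes in edgeR, with 1444 at an unadjusted p under 0.05. The lowest unadjusted p among the 10 fell to target genes and Notch2. Hey2 had a log2FC of -0.35 (SE 0.16, unadjusted p = 0.0313, FDR = 0.237) under HG + FFA, lower in 6 and higher in 3 of 9 sets.

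Hey1 had -0.53 (SE 0.24, FDR = 0.262) under HG + FFA and -0.49 (SE 0.24, FDR = 0.294) under ALL, lower in 8 of 9 sets in both. Its values under HG + FFA ran from 0.419 to 15.6 FPM with a median of 1.57 FPM, against 0.421 to 22.5 FPM and 2.68 FPM in Control, so the groups overlapped widely. Without the EC sets 9, 11 and 13 (chosen after seeing the data) Hey1 passed under HG + FFA, with a log2FC of -0.80 (SE 0.21, FDR = 0.0394), where 2.58% of all genes passed. In the left-out sets the log2 ratios of Hey1 to Control were -0.067, -0.007 and 1.005, set 13 being the only one of all sets that rose. A stronger fall without these sets was thus built in, and the pass adds no support. Heyl had -0.69 (SE 0.31, FDR = 0.259) and Notch2 -0.28 (SE 0.12, FDR = 0.212) under ALL. Under ALL 9 of the 10 genes had a log2FC below 0, with a median of -0.20 against -0.01 for all genes. The endothelial markers had a median log2FC of -0.07 there, and 1 of 8, Emcn, rose. The 5 fibroblast markers had a median log2FC of -0.33 under ALL, with none passing, and of -0.29 under HG + FFA, where Col1a1 was lower (log2FC -0.73, FDR = 0.0200). The part of these markers in the values of the 10 genes was not tested.

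Notch3 and Jag1, nearest to change in WT VSMC, had log2FC in EC of -0.13 (SE 0.15, FDR = 0.741) and -0.07 (SE 0.07, FDR = 0.679) under ALL. Notch3 under ALL was lower in 6 and higher in 3 of 9 sets, and Jag1 the same. The difference of these effects between WT VSMC and EC was not tested.

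A list of 45 other Notch pathway genes was read in the same fits. Under ALL in WT VSMC 3 of the 41 tested passed, where 7.45% of all genes did, 1 higher and 2 lower: Maml2, a Mastermind-like coactivator of the receptor domain (log2FC 0.49, SE 0.11, FDR = 0.0167), Dlk1, an atypical ligand that lacks the receptor-activating domain (log2FC -1.43, SE 0.24, FDR = 0.00226), and Dtx3l, a ubiquitin ligase of the Deltex family (log2FC -0.64, SE 0.15, FDR = 0.0184). Dlk1 passed also under HG + FFA in WT VSMC (log2FC -1.31, SE 0.23, FDR = 0.0163), under ALL in KO VSMC (log2FC -1.53, SE 0.28, FDR = 0.0249) and under HG + FFA in EC (log2FC -0.93, SE 0.27, FDR = 0.0497), as the only gene of the list in each, where 0.538%, 0.399% and 3.53% of all genes passed. In the other 5 stressor comparisons 0 of 41 to 43 genes passed in edgeR. None of 42 passed in the WT minus KO differences and none of 40 for KO against WT VSMC in Control, whereas 8 of 43 passed between EC and WT VSMC, 6 higher and 2 lower in EC, where 12% of all genes passed.

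Dlk1 in WT VSMC was 2.26, 10.9, 5.43 and 10.4 FPM in Control, 0.904, 6.49, 0.836 and 5.88 FPM under HG + FFA, and 0.845, 5.46, 1.35 and 4.34 FPM under ALL. It fell in 4 of 4 sets in both, while the groups overlapped. In KO VSMC it went from 4.51, 6.39, 110 and 19.0 FPM in Control to 3.37, 19.7 and 9.18 FPM under ALL in sets 6 to 8, lower in 3 of 3 sets, and set 7 stood far above the others. In EC it was lower under HG + FFA in 7 of 9 sets. AII + NA gave no passing change of Dlk1 in any cell type.

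**Figure D5:**
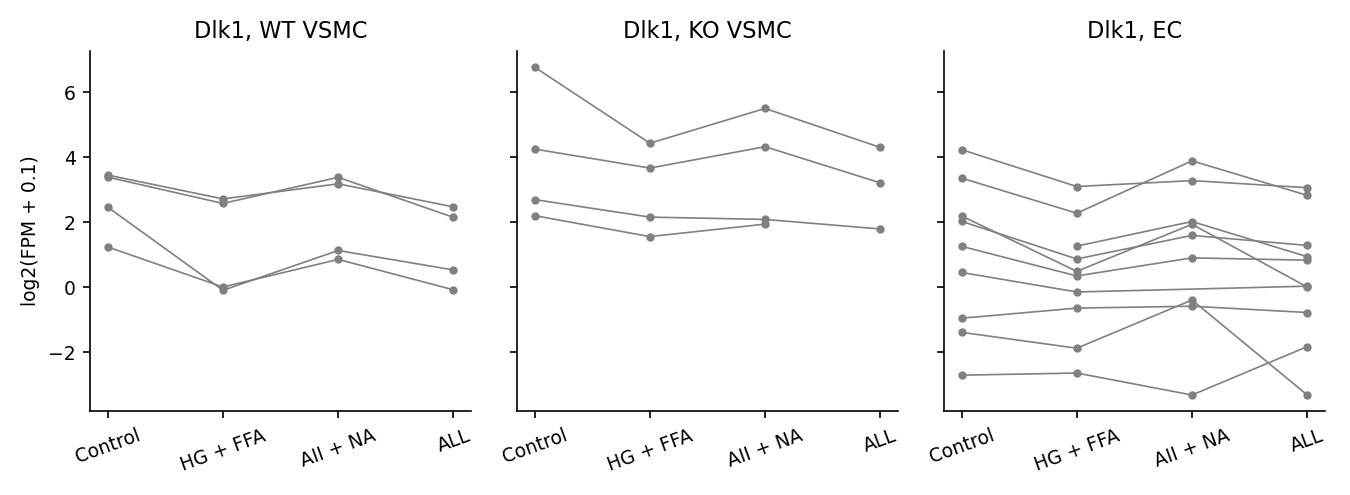
log2(FPM + 0.1) of Dlk1 under the 4 conditions in WT VSMC, KO VSMC and EC; each line is a set. Every WT VSMC set lies lower under HG + FFA and ALL than in Control (10.9 to 5.46 FPM under ALL in set 2), and EC sets vary more.

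Maml2 in WT VSMC was 95.4, 99.8, 115 and 97.6 FPM in Control and 113, 143, 143 and 179 FPM under ALL, higher in 4 of 4 sets. The nuclear partner Rbpj was counted at 218 ± 29.2 FPM in WT VSMC, 371 ± 154 FPM in KO VSMC (SD, n = 4 each) and 145 ± 42.9 FPM in EC (n = 9) in Control. Dll1, a Delta-like ligand, had 2.55 ± 0.793, 3.32 ± 1.05 and 3.27 ± 2.04 FPM in the 3 cell types. Dll4, the Delta-like ligand known from arterial and sprouting endothelium, had 0.577 ± 0.612, 0.152 ± 0.179 and 1.499 ± 1.73 FPM.

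For each of the 6 genes that averaged 3 FPM or more over the 31 VSMC libraries, the 3 most similar genes were found among 12148 others by Pearson's r of log2 FPM relative to the mean of the set. Notch3 was most like Asap1 (r = 0.926), Sipa1l1 (0.921) and Adcy6 (0.92), and Notch2 most like Gna13 (0.932), Zmiz1 (0.93) and Ankrd17 (0.93). Notch1 was nearest to Trio (0.881), Unkl (0.872) and Syne1 (0.862). Jag1 was nearest to Clasp2 (0.874), Aff4 (0.856) and Gpr165 (0.85). Hey2 and Hes1 had looser neighbours after the first, Atl1 (0.875), B3gnt9 (0.77) and Tmpo (0.769) for Hey2 and Art4 (0.753), Angpt4 (0.729) and Hoxa4 (0.724) for Hes1. The libraries of a set share animal and passage, and the values describe these libraries only.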

How the data were processed

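The deposited tables, made by the authors, hold whole-number counts per Ensembl gene for each library: reads aligned to mm39 with HISAT2 2.1.0 per the submitters' notes and counted over exons with featureCounts, multi-mapping reads included. The strand setting is not given in the sources used here, so reads of a gene and an overlapping antisense gene cannot be told apart; exons of other genes cover 14.0% of the exonic bases of Notch1, 8.9% of Notch3 and less of the other 8. Of 56953 identifiers, 56310 had a symbol in the GENCODE annotation of GRCm39, and the rest held 0.0241% of counts.

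Genes were filtered with filterByExpr by group, and all 10 passed in each of the 17 comparisons. Counts were scaled by TMM and tested with edgeR 4.0.16 (R 4.3.3; glmQLFit, glmQLFTest), each cell type in a fit of its own with the set as block; WT and KO effects were compared in a joint fit, and KO or EC against WT VSMC on Control libraries without block. DESeq2 1.42.0 was an alternative. The code was tested on simulated data. FPM are CPM computed here with TMM factors over all libraries, and FPM per kb divides by the exonic length. Set numbers pair libraries by animal and passage per the methods: libraries of 1 set deviated together (mean r of 0.818 in WT VSMC, 0.804 in KO VSMC, 0.858 in EC, the lowest pair 0.496). No pair of libraries of the same group was identical within counting noise.

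The 10 genes, the lists and the alternatives were chosen with earlier results of these data known. All 10 genes are named in every comparison; of the other pathway genes, those that passed in a stressor comparison are named, with Dll1, Dll4, Dlk1 and Rbpj for their levels.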

Additional observations from a re-analysis of the deposited data

Results flagged for a closer look

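Of 110 groups of 4 to 10 libraries, 14 had a library that lay apart from the rest by Dixon's test at the 95% level. Chance would give about 5.5 if the groups were independent and their values normal. The 4 conditions of a set share animal and passage, and the test was run on linear FPM, so no excess over chance can be read from this count. EC set 18 was apart for Notch4 in each condition, with 65.8 FPM in Control, 65.1 under HG + FFA, 38.6 under AII + NA and 56.2 under ALL, when no other EC library exceeded 24.8 FPM. The same set was apart for Notch1 under ALL (279 FPM, the next at 129 FPM). EC set 14 was apart for Hey2 in each condition, with 75.7 FPM in Control, 51.0 under HG + FFA, 77.4 under AII + NA and 54.7 under ALL, and no other EC library exceeded 28.7 FPM. EC set 16 under HG + FFA was apart for Hey1 (15.6 FPM), Jag2 (13.2 FPM) and Hes1 (94.6 FPM). In WT VSMC under HG + FFA, set 1 was apart for Hes1 (101 FPM, the others 11.7 to 22.8 FPM) and set 2 for Notch4 (6.13 FPM, the others 1.10 to 1.95 FPM). The tests of stressor effects used each set against its own Control, except EC set 10, which entered the fit without a Control library.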

How the results depend on the processing

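The number of the 10 genes passing was recomputed 161 times over the 17 comparisons, and 141 values stayed within 1.5 times of the count given. Under ALL in WT VSMC (1 gene, Notch3) it was 2 with DESeq2 size factors, with no low-count filter and with DESeq2 (Jag1 joined), 0 by the DEG rule and 0 with no replicate block, and 1 to 2 with a set left out. With no low-count filter it rose from 0 to 1 under HG + FFA in WT VSMC, under HG + FFA and AII + NA and for additivity in KO VSMC (Notch3 in each), under ALL in EC and for the WT minus KO difference under AII + NA (Notch2 in both). Leaving out KO VSMC set 5 gave 2 under HG + FFA (Notch2 and Notch3), where 1442 of all genes passed, and the range over left-out KO sets was 0 to 2. EC without sets 9, 11 and 13, an alternative added after seeing the data, gave 1 under HG + FFA (Hey1, with the only set in which it rose left out). EC against WT VSMC (2 genes) had 5 with DESeq2, 5 without EC sets 9, 11 and 13, and 1 without any 1 WT VSMC set. With no replicate block no gene of the 10 passed in any stressor comparison; the pairing changed no other call. Of 1492 recomputed log2FC of the 10 genes, 100 changed sign, none of a gene that passed; the causes were not tested.

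Counts over all genes moved by more than 1.5 times as follows. With no low-count filter, 575, 625 and 70 genes passed in WT VSMC for HG + FFA, AII + NA and additivity (91, 9 and 0 given), 598, 268, 464 and 20 in KO VSMC for HG + FFA, AII + NA, ALL and additivity (77, 0, 70 and 0), 44, 893 and 78 in EC for AII + NA, ALL and additivity (0, 546 and 0), 34, 350 and 323 for the WT minus KO differences (0, 0 and 2) and 10 for KO against WT VSMC (1). DESeq2 gave 294 and 169 in WT VSMC for the single mixtures, 246, 11 and 259 in KO VSMC, 969 and 895 in EC for HG + FFA (605 given) and ALL, 58 for the difference under ALL, 343 for KO and 3603 for EC against WT VSMC (2062). The DEG rule gave 48 and 361 in WT VSMC for HG + FFA and ALL (1259), 50 in KO VSMC for HG + FFA, and 111 in EC for HG + FFA and 0.636% of the genes tested for ALL. With no replicate block there were 0 in VSMC and 2 each in EC for HG + FFA and ALL. In EC, for HG + FFA and ALL, the animal as block gave 157 and 134, and leaving out sets 15 and 16 gave 255 and 292; leaving out sets 9, 11 and 13 gave 334 for ALL. EC against WT VSMC had 987 without sets 15 and 16 and 4799 without sets 9, 11 and 13. With 1 set left out the counts ran from 23 to 85, 0 to 13 and 494 to 970 in WT VSMC, from 0 to 1442 (without set 5) and 0 to 175 in KO VSMC for HG + FFA and ALL, from 0 to 7 for the difference under ALL, from 0 to 397 for KO and from 654 to 863 for EC against WT VSMC.

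Hey1 and Heyl rest on few counts in VSMC (0 to 51 and 0 to 39 per library), and their fold changes there have the largest standard errors of the 10 genes.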
